A study of Mus musculus with 16 samples.

Results

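10 genes that mark inhibitory interneurons of the cortex were followed in RNA sequencing of 16 mice. They are the peptide genes Sst, Vip, Npy, Cck, Cort and Crh, the calcium buffer gene Pvalb, the GABA synthesis genes Gad1 and Gad2, and the membrane protein gene Lamp5. The 10 genes were taken by name, not by a rule on their values, from the 39179 gene identifiers of the count table, and all 10 were found. Earlier results of these data were known when they were chosen. The mice formed 4 groups of 4: wild-type (MRPS5 WT) and V338Y mice at 3 months of age, and wild-type and V338Y mice at 19 months of age. V338Y mice were homozygous for a knock-in allele of MRPS5, which encodes a component of the mitochondrial ribosome, so that all cells carried the altered protein, and no mouse received a treatment. The labels name the tissue as brain, and the methods of the study describe cortex that had been separated from the cerebellum. Mrps5 itself was read at 523 ± 15.1 normalised counts in wild-type and 522 ± 44.1 in V338Y mice at 3 months, and at 402 ± 26.4 and 402 ± 22.9 at 19 months (SD, n = 4 each). Gene counts do not show the altered codon, so the genotype labels could not be checked from them.

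Cortical interneurons release GABA, which glutamate decarboxylase makes from glutamate in its 2 forms, GAD67 (Gad1) and GAD65 (Gad2). The cells fall into classes that are told apart by the proteins and peptides they make. Fast-spiking basket and chandelier cells carry parvalbumin (Pvalb), Martinotti cells carry somatostatin (Sst), cells that inhibit other interneurons carry vasoactive intestinal peptide (Vip), and neurogliaform cells of the upper layers carry Lamp5 and often neuropeptide Y (Npy). Cortistatin (Cort) is a relative of somatostatin that acts on the same receptors, corticotropin-releasing hormone (Crh) is made by some Sst and Vip cells, and cholecystokinin (Cck) is made by a basket cell class and also by pyramidal neurons. None of the genes is unique to the cortex. Gad1 and Gad2 are used by GABA neurons of the striatum, olfactory bulb and cerebellum as well, and Pvalb is strong in the Purkinje cells and interneurons of the cerebellum.

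Sst and Cort encode related peptides, and the end of their coding sequences is shown because both transcripts are described side by side in the results. The longest open reading frame of the GENCODE M21 transcript held 351 bases in Sst and 330 in Cort. The 36 bases below lie at coding positions 313 to 348 of Sst and 289 to 324 of Cort, and capitals mark the 30 bases (83.3%) that are the same in both.
Sst: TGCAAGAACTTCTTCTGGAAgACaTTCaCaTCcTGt
Cort: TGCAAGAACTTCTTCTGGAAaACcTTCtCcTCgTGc

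Upstream sequence is shown for the 5 members in which a script found TGACG, the half-site of the cAMP response element, on either strand of a window from 250 bases before to 50 bases after the RefSeq start site (GRCm38.p6). The motif was chosen with the sequences in view. It was present in 20.8% of 32851 such windows of the mouse genome, and the full palindrome TGACGTCA, which contains the half-site on both strands, was present in 1.79%. Among 9 members with a window, 5 held the half-site and 1, Sst, held the palindrome. The 85 bases before the start site are printed 5′ to 3′ on the strand of the gene, with capitals for the motif.
Sst, chr16:23890845-23890929, minus strand: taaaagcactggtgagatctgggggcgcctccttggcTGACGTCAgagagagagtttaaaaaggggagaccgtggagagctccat
Cort, chr4:149126764-149126848, minus strand: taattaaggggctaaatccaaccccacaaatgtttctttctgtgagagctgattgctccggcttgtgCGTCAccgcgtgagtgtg
Vip, chr10:5639133-5639217, plus strand: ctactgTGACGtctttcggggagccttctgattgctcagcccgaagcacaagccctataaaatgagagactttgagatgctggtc
Cck, chr9:121495695-121495779, minus strand: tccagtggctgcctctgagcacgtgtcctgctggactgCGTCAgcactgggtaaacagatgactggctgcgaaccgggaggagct
Gad2, chr2:22622242-22622326, plus strand: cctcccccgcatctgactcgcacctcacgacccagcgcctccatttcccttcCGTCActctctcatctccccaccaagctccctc
Sst, Cort and Gad2 were lower at 19 months in wild-type mice and Vip and Cck did not pass the test, as described next, so the letters were found on both sides of that test.

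Total counts were between 6181448 and 19601664 per mouse, and the level of each gene is given as a normalised read count, scaled so that all libraries match 1 common library of 13289975 counts. The least deeply covered members were Cort, with 14 to 84 raw counts per mouse, and Crh, with 18 to 97, so their values carry more counting error than those of the other 8. Other features of the libraries touch the results. The 17 markers of cerebellar granule cells, Purkinje cells and interneurons summed to 781 to 1330 CPM (counts scaled to the library total) in 3-month wild-type mice and to 129 to 2150 CPM in 3-month V338Y mice, where mouse 14 alone was low, but to 121 to 145 and 120 to 142 CPM in wild-type and V338Y mice at 19 months. The defining granule cell gene Gabra6 averaged 1250 normalised counts in 3-month wild-type mice and at most 6.51 in any mouse at 19 months, and it was 18.8 in V338Y mouse 14. The 5 olfactory bulb markers were also lower at 19 months in both genotypes, 61.8 to 79 CPM against 20.7 to 25.2 in wild-type mice. The methods name all mice as female, whereas all 8 libraries of 3 months carried Y-linked transcripts such as Ddx3y (mean 1580 normalised counts in wild-type mice) with almost no Xist, and all 8 libraries of 19 months had Ddx3y at 0 and Xist at 9380 or more, so that age and sex as read from these genes cannot be told apart. Markers of cortical excitatory neurons, 8 genes such as Slc17a7, were present in every group at 736 to 926 CPM in sum. The share of cells and the amount of RNA per cell cannot be told apart in such bulk samples.

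Per kilobase of exon, the peptide genes Sst and Cck were among the 3 highest of the 10 levels in every group, and Vip, Cort and Crh were the 3 lowest. In 3-month wild-type mice, the means were 1690 normalised counts per kilobase for Sst, 1540 for Cck and 1500 for Pvalb, and the values of these 3 genes overlapped between mice. Gad1 (755) and Npy (736) followed and overlapped with each other, then Gad2 (409) and Lamp5 (312), each apart from its neighbours. Vip (96.8), Cort (75.7) and Crh (54.1) were lowest, and each overlapped with the next. In 19-month wild-type mice, the order was Cck (1330), Sst (1240), Npy (587), Gad1 (572), Pvalb (442), Gad2 (353), Lamp5 (306), Vip (98.2), Cort (52) and Crh (28.3), with overlaps between Cck and Sst and between Npy and Gad1. Pvalb, level with Sst at 3 months, thus stood below Npy and Gad1 at 19 months. In V338Y mice of 3 months, Pvalb had the highest mean, 1750, but also the widest spread of the 10 genes (SD 621), and it overlapped with Sst (1540). In V338Y mice of 19 months, Pvalb (586) overlapped with both Npy (601) and Gad1 (583).

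The first comparison asked how the interneuron genes differed between 3 and 19 months of age in wild-type mice. Of the 10 members, 7 were lower at 19 months, Sst, Npy, Cort, Crh, Pvalb, Gad1 and Gad2, and none was higher (edgeR quasi-likelihood test, adjusted p under 0.05). Of all 16101 genes tested, 31.5% were lower and 31.4% higher by the same rule. The 2 groups did not overlap for 6 of the 10, all lower at 19 months, against 28.6% of all genes that were apart and lower and 26.9% apart and higher. The median log2 fold change of the 10 members was -0.363, and that of all genes -0.005. Other cell type markers moved as well: 5 of 6 pan-neuronal markers were lower (median log2 fold change -0.552), and all 5 astrocyte and all 5 microglia markers were higher (medians 0.903 and 0.81). Summed pan-neuronal markers were 3960 to 4230 CPM at 3 and 3160 to 3370 CPM at 19 months, and summed astrocyte markers 1050 to 1150 and 2260 to 2420 CPM. The part of these lists in the members' values was not tested.

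Of the GABA synthesis genes, Gad1 was read at 5820, 5717, 5871 and 5656 normalised counts in 3-month wild-type mice and at 4476, 4477, 4254 and 4268 at 19 months. The spread within each group was small beside the gap, and Gad1 fell by 23.6% (log2 fold change -0.39, SE 0.0389, adjusted p = 4.38e-10). Gad2, whose product sits at synaptic terminals, was read at 2517, 2204, 2402 and 2502 at 3 months and at 2121, 2006, 1986 and 2189 at 19 months. The lowest young mouse lay just above the highest old mouse, and Gad2 fell by 13.1% (log2 fold change -0.20, SE 0.0478, adjusted p = 5e-04).

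Pvalb, the marker of fast-spiking cells, differed most. Its normalised counts were 1262, 1782, 1609 and 1585 at 3 months and 491, 459, 484 and 409 at 19 months. Every young mouse stood far above every old one, and Pvalb fell by 70.2% (log2 fold change -1.74, SE 0.100, adjusted p = 1.83e-08). The libraries that were high in Pvalb were also those with cerebellar markers, 16 of 17 of which were lower at 19 months in wild-type mice.

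Among the peptide genes, Sst was read at 1424, 1211, 1125 and 1103 at 3 months and at 929, 857, 961 and 820 at 19 months. The groups were apart and Sst fell by 25.4% (log2 fold change -0.42, SE 0.0718, adjusted p = 4.01e-05). Cort, the relative of Sst with the shared coding stretch shown above, was read at 44, 54, 66 and 41 at 3 months and at 37, 29, 43 and 31 at 19 months. One young and one old mouse overlapped, and Cort fell by 31.2% (log2 fold change -0.54, SE 0.202, adjusted p = 0.0213). The call did not pass the test with DESeq2 (adjusted p = 0.065) or without wild-type mouse 11 of 3 months (0.108) or mouse 13 of 19 months (0.0977). Npy, which neurogliaform and some Sst cells release, was read at 418, 489, 397 and 362 at 3 months and at 328, 290, 353 and 357 at 19 months. Its groups were apart by a few counts, and it fell by 20.8% (log2 fold change -0.34, SE 0.0887, adjusted p = 0.0018). Crh, the stress peptide, was read at 74, 85, 59 and 68 at 3 months and at 50, 25, 33 and 40 at 19 months. The groups were apart and Crh fell by 47.7% (log2 fold change -0.94, SE 0.196, adjusted p = 0.000124).

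The other 3 members did not pass the test. Vip was read at 318, 362, 302 and 335 at 3 months and at 319, 307, 362 and 348 at 19 months, with a log2 fold change of 0.01 (SE 0.0799, adjusted p = 0.894). The groups overlapped almost completely, as they did for Lamp5, with 937, 923, 936 and 861 against 914, 844, 910 and 919 (log2 fold change -0.02, SE 0.0538, adjusted p = 0.773). Cck was read at 2276, 2061, 1679 and 2032 at 3 months and at 1858, 1634, 1814 and 1620 at 19 months. Its log2 fold change of -0.20 (SE 0.0845) missed the threshold (adjusted p = 0.0611). Cck passed as lower with DESeq2 (adjusted p = 0.0164), with library size alone (0.0109), with no count filter (5.24e-05) and without mouse 11, the lowest of the young mice (9.71e-05).

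**Figure D1:**
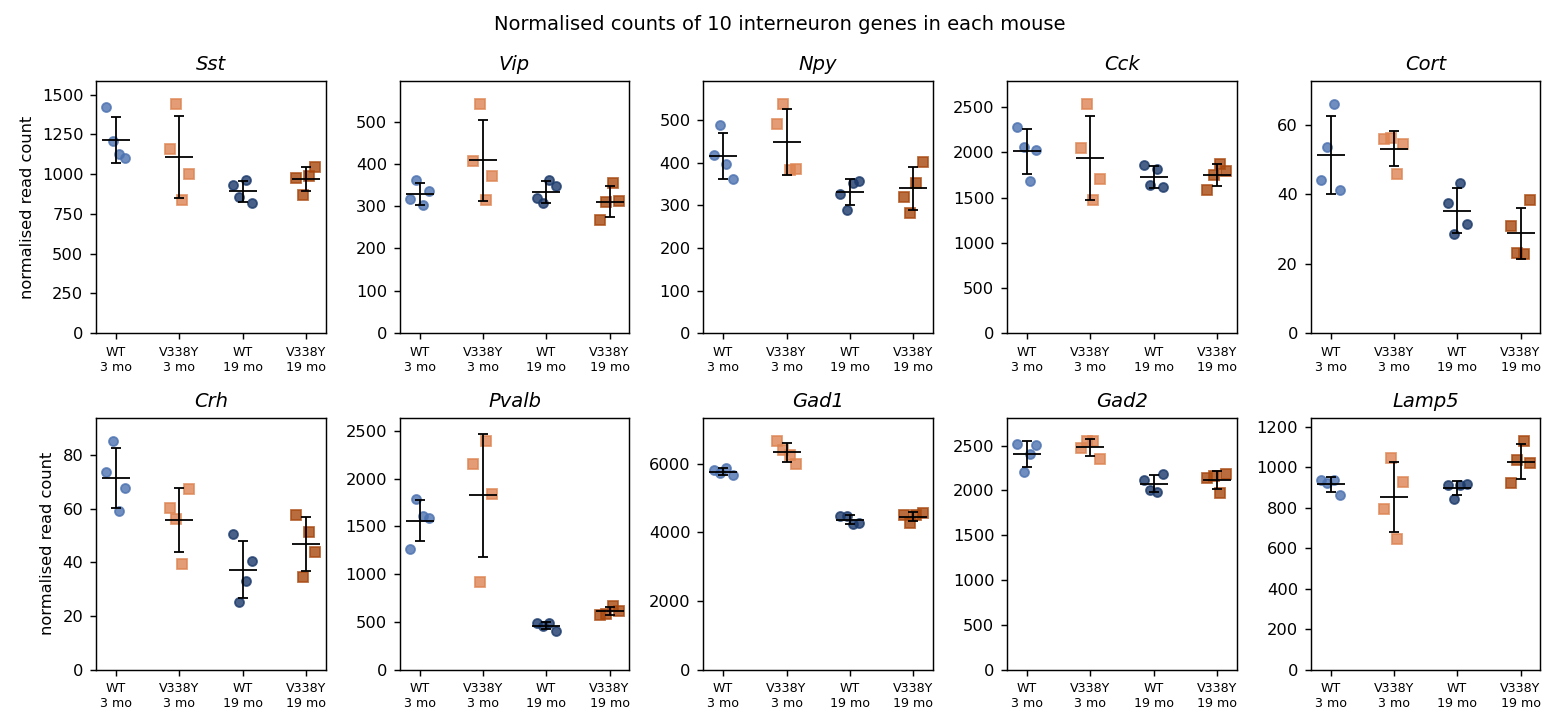
Normalised read counts (vertical axis of each panel, from 0) of the 10 interneuron genes in wild-type (WT, circles) and V338Y (squares) mice of 3 and 19 months (mo), with 1 point per mouse and bars for the mean ± SD of 4 mice. Gad1, Gad2 and Pvalb sit lower in all mice of 19 months, 1 mouse of 3 months (V338Y mouse 14, Pvalb 919) lies close to the old mice in Pvalb, and Vip of wild-type mice stays between 302 and 362 at both ages.

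The same question in V338Y mice gave 5 lower members, Npy, Cort, Pvalb, Gad1 and Gad2, and none higher, against 25.7% of 16770 genes lower and 23.1% higher. For 4 of the 10, the values were apart between the ages, all lower at 19 months, and in all genes 21.9% were apart and lower and 22.2% apart and higher. The median log2 fold change of the members was -0.334 and that of all genes -0.029. As in wild-type mice, 5 of 6 pan-neuronal markers were lower (median -0.451), and 5 of 5 astrocyte and 5 of 5 microglia markers were higher. The 3-month V338Y mice had the widest spread of the 4 groups for Sst, Vip, Npy, Cck, Pvalb, Gad1 and Lamp5. The coefficient of variation was 35.4% for Pvalb, 23.2% for Sst, 23.7% for Vip and 23.8% for Cck, against 13.9%, 12%, 7.86% and 12.3% in wild-type mice of that age. For Cort (9.34%) and Gad2 (3.74%) it was the lowest of the 4 groups, and for Crh (21.3%) it was below the 28.6% of 19-month wild-type mice.

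Gad1 was read at 6669, 6392, 6253 and 5980 in mice 13 to 16 at 3 months and at 4490, 4260, 4514 and 4550 in mice 17 to 20 at 19 months. The groups were far apart and Gad1 fell by 30.0% (log2 fold change -0.51, SE 0.0547, adjusted p = 9.4e-06). Gad2 was read at 2472, 2556, 2547 and 2355 at 3 months and at 2144, 2165, 1970 and 2188 at 19 months. It was apart as well and fell by 15.3% (log2 fold change -0.24, SE 0.0564, adjusted p = 0.00373).

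Pvalb was read at 2148, 919, 2396 and 1835 at 3 months and at 577, 583, 670 and 611 at 19 months. Mouse 14 held less than any other 3-month mouse of either genotype, yet more than any 19-month mouse, and Pvalb fell by 66.7% (log2 fold change -1.59, SE 0.303, adjusted p = 0.00497). Cort was read at 56, 56, 46 and 55 at 3 months and at 31, 23, 23 and 38 at 19 months, and it fell by 46.5% with no overlap (log2 fold change -0.90, SE 0.188, adjusted p = 0.00167). Npy was read at 490, 539, 384 and 385 at 3 months and at 321, 283, 354 and 403 at 19 months. One old mouse lay above 2 young ones, and Npy fell by 24.6% (log2 fold change -0.41, SE 0.133, adjusted p = 0.0263). The call was lost when mouse 13, 14, 17 or 18 was left out (adjusted p = 0.0793, 0.0604, 0.0685 and 0.0686), with no count filter (0.0624) and with the striatum covariate (0.267).

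Sst, which was lower with age in wild-type mice, was read at 1158, 1442, 837 and 999 in 3-month V338Y mice and at 974, 869, 991 and 1044 at 19 months, and did not pass the test (log2 fold change -0.20, SE 0.144, adjusted p = 0.277). The young group spanned the whole range of the old one. Vip was read at 406, 542, 315 and 371 against 267, 311, 355 and 312 (log2 fold change -0.40, SE 0.150, adjusted p = 0.0524), and it passed as lower with DESeq2 (adjusted p = 0.0305), with library size alone (0.025), in the fit of 16 libraries (0.0147), with the cerebellum covariate (0.000205) and without mouse 15 (0.013) or mouse 19 (0.0434). Crh, at 60, 56, 39 and 67 against 58, 35, 51 and 44, overlapped (log2 fold change -0.27, SE 0.192, adjusted p = 0.261). For Cck, at 2048, 2536, 1473 and 1704 against 1586, 1748, 1874 and 1796, the young mice lay on both sides of the old ones (log2 fold change -0.15, SE 0.146, adjusted p = 0.416). Lamp5, at 794, 1046, 646 and 924 against 919, 1036, 1131 and 1019, was the 1 member with a positive value (log2 fold change 0.26, SE 0.127, adjusted p = 0.116), and it passed as higher in the fit of 16 libraries (0.27, adjusted p = 0.0383) and without mouse 14 (0.38, adjusted p = 0.0144).

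The age effect was not shown to differ between the genotypes for any member. In a fit of all 16 mice, 0.0535% of 16831 genes passed the test of the difference (9 genes, edgeR), and none of the 10 was among them. At an unadjusted p under 0.05 there were 2 of the 10 and 1723 of all genes. The 2 were Vip, with a more negative age effect in V338Y mice (difference of log2 fold changes -0.40, SE 0.185, adjusted p = 0.476), and Crh, with a less negative one (0.68, SE 0.293, adjusted p = 0.446). DESeq2, too, called none of the 10.

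The 3-month V338Y mice could be set against their own cerebellar marker level, since mouse 14 had a mean log2 CPM of 1.99 over the 17 markers while the other young mice of both genotypes had 4.37 to 5.62 and the old mice 1.19 to 1.52. The 3 young V338Y mice with cerebellar markers had 1835 to 2396 normalised counts of Pvalb, a gene of Purkinje cells, and mouse 14 had 919, above the 577 to 670 of the old V338Y mice. For Gad1, mouse 14, with 6392, lay among the other 3 young mice (5980 to 6669) and above all old V338Y mice (4260 to 4550). Gad2 in mouse 14 was the highest of the 16 mice, 2556, and Cort was 56 there. For Sst, Vip, Npy, Cck and Lamp5, mouse 14 was the highest and mouse 15, with the most cerebellar marker RNA (2150 CPM), the lowest of the 4 mice, as for Sst with 1442 and 837. Mouse 14 also differed in other marker lists. Of the 16 mice it had the highest mean log2 CPM for cortical excitatory neurons (5.98), striatum (5.05) and hippocampus (2.79), and the lowest for hypothalamus (0.234). The part of these lists in its values was not tested. Set alone against the 4 old V338Y mice, an alternative chosen after seeing the data in which the lone mouse is assumed to vary like the old ones, mouse 14 gave 8 members as lower at 19 months, among them Sst (log2 fold change -0.56), Vip (-0.78), Cck (-0.52) and Pvalb (-0.58), while Crh (-0.27) and Lamp5 (-0.01) did not pass. From all 4 young mice, the log2 fold change was -1.59 for Pvalb, and for Gad1 it was -0.51 either way. The values from mouse 14 rest on 1 mouse, which carried Y-linked transcripts like the other young mice. The part of cerebellar RNA in them was not tested. With the cerebellar marker level as a covariate, the V338Y comparison gave 7 lower members, with Sst, Vip and Cck gained and Gad2 lost (adjusted p = 0.0528). Of the young V338Y mice, only mouse 14 came near the old ones in this level, so that fit separates age from the covariate through mouse 14 alone. Over all alternatives, the log2 fold change of Pvalb with age in V338Y mice ran from -1.84 to -0.35. In wild-type mice the covariate gave 0 of 10, and 94 of all genes. Since no young wild-type mouse came near the old ones in this level, age and the covariate cannot be told apart there.

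**Figure D2:**
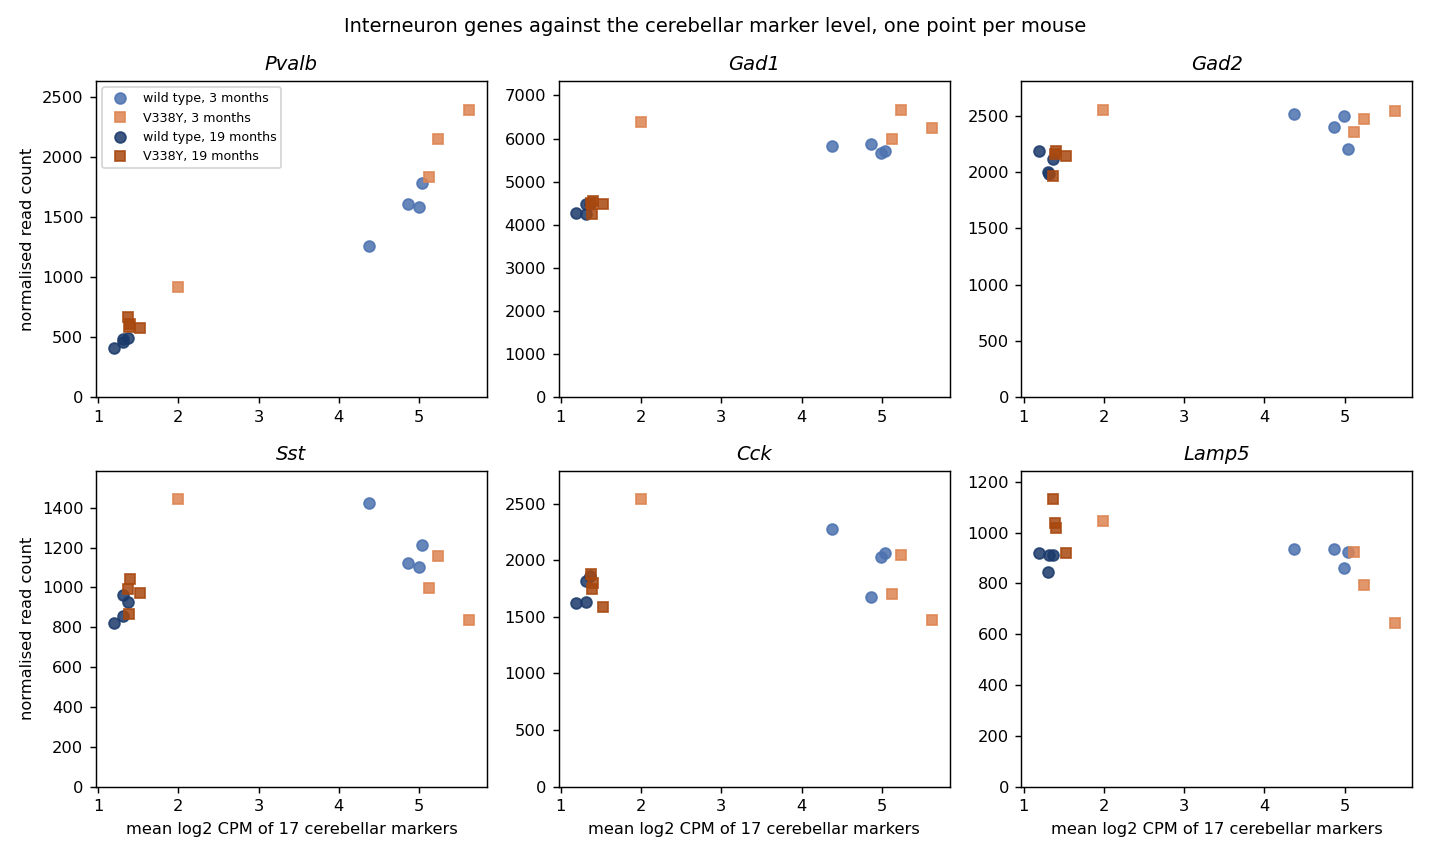
Normalised read counts (vertical axis, from 0) of 6 interneuron genes against the mean log2 CPM of 17 cerebellar marker genes (horizontal axis), with 1 point per mouse (circles, wild type; squares, V338Y; lighter, 3 months; darker, 19 months). V338Y mouse 14 of 3 months, at 1.99, lies with the young mice for Gad1 (6392) and Gad2 (2556), between young and old for Pvalb (919) and above the other young V338Y mice for Sst (1442), Cck (2536) and Lamp5 (1046).

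The comparison of the genotypes at 19 months asked what the altered mitochondrial ribosome goes with in old mice. Of the 10 members, 2 were higher in V338Y mice, Pvalb and Lamp5, and none was lower, against 1.19% of 16420 genes higher and 1.92% lower. The groups were apart for these 2 members, both higher in V338Y mice, and in all genes 4.49% were apart and higher and 4.83% apart and lower. Summed cerebellar markers were 121 to 145 CPM in old wild-type and 120 to 142 CPM in old V338Y mice. By the mean log2 CPM of these markers, however, all old V338Y mice (1.369 to 1.523) lay above all old wild-type mice (1.194 to 1.368). Of 7 tested granule cell markers none passed the test. Of 6 tested Purkinje cell and interneuron markers, 1 was lower in V338Y mice. Pituitary markers summed to 65.8 to 103 CPM in wild-type and 14.2 to 19.6 CPM in V338Y mice, with 2 of 3 tested genes lower in V338Y mice. Choroid plexus markers ran from 208 to 950 CPM in wild-type and from 140 to 2220 CPM in V338Y mice, with none of 4 past the test. Of the pan-neuronal markers, 2 of 6 were higher in V338Y mice (median log2 fold change 0.10), and the part of these lists in the members' values was not tested.

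Pvalb was read at 491, 459, 484 and 409 in old wild-type mice and at 577, 583, 670 and 611 in old V338Y mice. All 4 V338Y mice lay above all wild-type mice, and the difference was 31.8% (log2 fold change 0.40, SE 0.0633, adjusted p = 0.000137). It passed with each of the 8 mice left out in turn. In a fit that took its spread from all 16 libraries, with the uneven 3-month V338Y mice among them, the log2 fold change was the same but the adjusted p was 0.686.

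Lamp5 was read at 914, 844, 910 and 919 in old wild-type mice and at 919, 1036, 1131 and 1019 in old V338Y mice. The highest wild-type and the lowest V338Y mouse were nearly level, and the difference of 15.3% (log2 fold change 0.20, SE 0.0544, adjusted p = 0.0314) did not hold in all alternatives. It did not pass with DESeq2 (adjusted p = 0.0679), in the fit of 16 libraries (0.594), or without wild-type mouse 13, 14 or 15 (0.159, 0.0614 and 0.0614) or V338Y mouse 18 or 19 (0.0727 and 0.208). Lamp5 lies 8.45 Mb from Mrps5 on chromosome 2, and of the 310 tested genes within 20 Mb of Mrps5, 13.5% passed the genotype test at 19 months, against 2.92% of all others. The part of the flanking DNA carried along with the allele in this result was not tested. Gad1 and Gad2 are on the same chromosome at 57 and 105 Mb.

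The other 8 members did not pass in old mice. Cort (log2 fold change -0.31, SE 0.217, adjusted p = 0.53) and Crh (0.32, SE 0.205, adjusted p = 0.481) had the larger values and the larger errors, on the lowest counts of the 10. Sst, at 929, 857, 961 and 820 against 974, 869, 991 and 1044, had a log2 fold change of 0.11 (SE 0.0564, adjusted p = 0.313). Gad1 (0.03, SE 0.0376), Gad2 (0.03, SE 0.0424), Cck (0.02, SE 0.0511), Npy (0.06, SE 0.0992) and Vip (-0.08, SE 0.0787) lay within about 1 standard error of 0.

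At 3 months, none of the 10 members passed the genotype test, and 0.0616% of 16241 genes did (10 genes, edgeR). At an unadjusted p under 0.05 there were 2 of the 10, Gad1 and Vip, and 815 of all genes, and DESeq2 called none of the 10. Gad1 did not overlap, with 6669, 6392, 6253 and 5980 in V338Y against 5820, 5717, 5871 and 5656 in wild-type mice (log2 fold change 0.14, SE 0.0524, adjusted p = 0.926). The share of all genes without overlap was not counted for this comparison. Vip overlapped (0.32, SE 0.141, adjusted p = 0.926), and Pvalb, higher in V338Y mice of 19 months, had a log2 fold change of 0.23 with an SE of 0.304 at 3 months (adjusted p = 0.947).

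**Figure D3:**
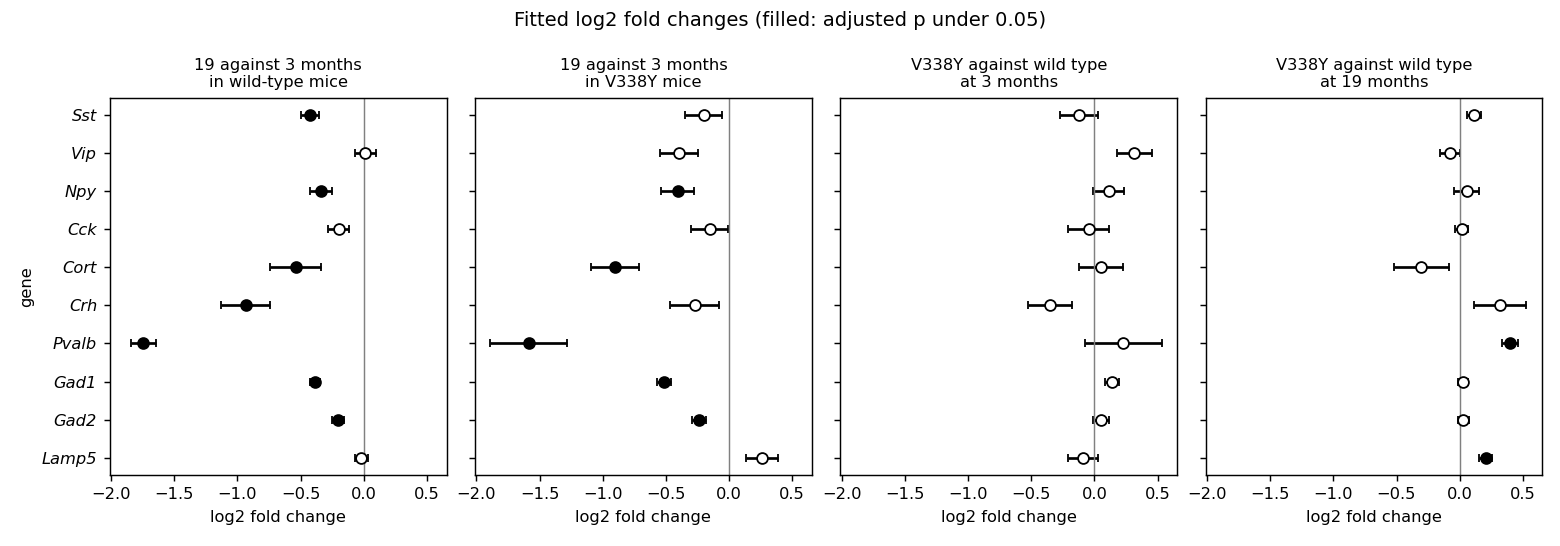
Fitted log2 fold changes (horizontal axis) of the 10 genes (vertical axis) in the 4 comparisons, with bars for ± 1 standard error and filled points for an adjusted p under 0.05 (edgeR, 8 mice per comparison). Pvalb lies at -1.74 and -1.59 in the age comparisons and at 0.40 between the genotypes at 19 months, and no point is filled in the genotype comparison at 3 months.

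Related genes, from 9 lists written down by gene name, passed the test in both directions with age. Their counts stand beside the shares of all genes tested, 31.5% lower and 31.4% higher with age in wild-type mice and 25.7% and 23.1% in V338Y mice. Between the genotypes at 19 months, 1.92% of all genes were lower and 1.19% higher in V338Y mice. The lists were not tested as sets. Among 7 genes of GABA transport and breakdown, 4 were higher and 1 lower in old wild-type mice. The lower one was Slc32a1, the vesicular GABA transporter (log2 fold change -0.38, adjusted p = 0.000191), while the membrane transporters of glia and blood vessels rose, Slc6a11 by 0.69, Slc6a12 by 1.74 and Slc6a13 by 2.04 on the log2 scale. In V338Y mice, Slc32a1 (-0.19) and Abat, which breaks GABA down (-0.16), were lower, and the same 3 transporters were higher (0.55, 1.59 and 1.49). All 5 endothelial markers, such as Cldn5, were higher at 19 months in both genotypes, with a median log2 fold change of 2.36 in wild-type mice, and their part in the transporter result was not tested. Slc6a13 was lower in V338Y than in wild-type mice at 19 months (-0.48, adjusted p = 0.00475).

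Transcription factors of interneuron development differed in their counts. Of 4 tested factors of the medial ganglionic eminence, the birthplace of Pvalb and Sst cells, 3 were higher in wild-type mice, Sox6 (0.74), Maf (0.34) and Satb1 (0.27), and 2 in V338Y mice, Sox6 (0.48) and Satb1 (0.21). None of the 4 was lower in either genotype. Astrocyte, microglia and endothelial markers were also higher with age in both genotypes (5 of 5 each). Their part in the values of these factors and of the genes below was not tested. In V338Y mouse 14, Satb1 (1190 normalised counts) and Sox6 (332) lay between the other young V338Y mice (927 to 1160 and 286 to 313) and the old ones (1230 to 1320 and 413 to 464). Maf, at 311 in mouse 14, was level with the lowest of the other young ones (311 to 425). Of 6 genes of the caudal ganglionic eminence, the source of Vip and Lamp5 cells, 2 were higher in wild-type mice, Nr2f2 (0.69) and Prox1 (0.31), and 2 lower, Sp8 (-1.26) and Npas1 (-0.76). In V338Y mice, Sp8 (-1.18), Npas1 (-0.46) and Adarb2 (-0.28) were lower and Nr2f2 was higher (0.34). Olfactory bulb interneurons also use Sp8, and all 5 olfactory bulb markers were lower with age in both genotypes.

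Genes that accompany the members in their classes also passed in both directions. Of 7 genes of Pvalb cells, Syt2, a synaptotagmin of fast terminals (-0.96), the potassium channel Kcnc1 (-0.48) and the tachykinin gene Tac1 (-0.19) were lower in old wild-type mice and the sister channel Kcnc2 was higher (0.38). In V338Y mouse 14, with few cerebellar markers, Syt2 was 1500 normalised counts, near the 1310 to 1480 of old V338Y mice and under the 2410 to 3100 of the other young ones, and Kcnc1 was 1540, under the 1600 to 1820 of old mice. Kcnc2 was 2150 in mouse 14, above the 1410 to 1510 of the other young and the 1820 to 1940 of the old V338Y mice. Tac1 was 517 there, also above both (426 to 479 and 370 to 444). Of 9 tested genes of Sst cells, 3 were lower in wild-type mice, with Calb1 (-1.72) and Crhbp, the binding protein of CRH (-0.27), among them, and 3 were higher, with Elfn1 (0.36) and Grin3a (0.28). Of 7 genes of Vip and Sncg cells, 5 were lower, with Calb2 (-2.21), Chat (-0.87) and Sncg (-0.59), and none was higher. Of 6 genes of Lamp5 cells, 4 were lower, with Pax6 (-1.23), Reln (-0.65) and Id2 (-0.36), and 2 were higher, Lsp1 (0.99) and Ndnf (0.42), the marker of neurogliaform cells. Calb1, Calb2, Reln and Pax6 are also genes of the cerebellum, and in mouse 14 they stood at 1570, 789, 2870 and 119 normalised counts, against lows of 3380, 1610, 4860 and 393 in the other young V338Y mice.

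In V338Y mice, 2 of 7 genes of Pvalb cells were lower with age (Syt2, -0.78, and Tac1, -0.22), 2 of 9 of Sst cells (Calb1 at -1.84), 4 of 7 of Vip and Sncg cells (Calb2, -1.89, the cannabinoid receptor Cnr1, -0.67, and Chat, -0.48) and 3 of 6 of Lamp5 cells (Reln, -0.88, Kit, -0.78, and Id2, -0.14). Lsp1 was higher (0.81). Between the genotypes at 19 months, 2 of the 7 genes of Pvalb cells were higher in V338Y mice, as Pvalb itself was: Syt2 with 1190 ± 99.9 normalised counts in wild-type and 1390 ± 90.6 in V338Y mice (SD, n = 4; log2 fold change 0.22, adjusted p = 0.0261), and the netrin receptor Unc5b with 723.9 ± 49.6 and 853.1 ± 45.6 (0.23, adjusted p = 0.0115). None of the 6 genes of Lamp5 cells passed there.

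The receptors of the member peptides and the machinery that cuts and stores peptides were read from the same table. Of 13 tested receptors, 4 were higher in old wild-type mice, among them Npy1r (0.39) and Sstr4 (0.36), and Crhr1, the main CRH receptor, was lower (-1.01). In V338Y mice, Npy1r (0.48) and Sstr4 (0.41) were higher, and Crhr1 (-1.08) and Vipr2, a VIP receptor (-0.79), were lower. Crhr1 is also strong in the cerebellum, and mouse 14 had 334 normalised counts of it, between the 217 to 246 of old V338Y mice and the 497 to 591 of the other young ones. Npy1r (226) and Sstr4 (281) in mouse 14 also lay between the other young (164 to 182 and 183 to 241) and the old V338Y mice (234 to 281 and 292 to 319). Vipr2, at 71.7, lay among the other young ones (71.3 to 88.8). Of 11 genes of peptide processing and granules, 5 were lower in old wild-type mice, with the granule proteins Chga (-0.72), Scg2 (-0.51) and Chgb (-0.42) among them, and 3 were higher, the carboxypeptidase Cpe (0.40), the amidating enzyme Pam (0.23) and Scg3 (0.20). These 6 genes passed in the same direction in V338Y mice. In mouse 14, Pam (3960) stood above the other young (2790 to 3250) and the old V338Y mice (3860 to 3940). Cpe (22500) lay between the other young (16700 to 20900) and the old ones (25600 to 29800). Scg3 (2610), Scg2 (5290), Chgb (3850) and Chga (2110) lay among the other young mice. At 19 months, Vgf (0.23, adjusted p = 0.00043) and the convertase inhibitor Pcsk1n (0.24, adjusted p = 0.017) were higher in V338Y than in wild-type mice.

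**Figure D4:**
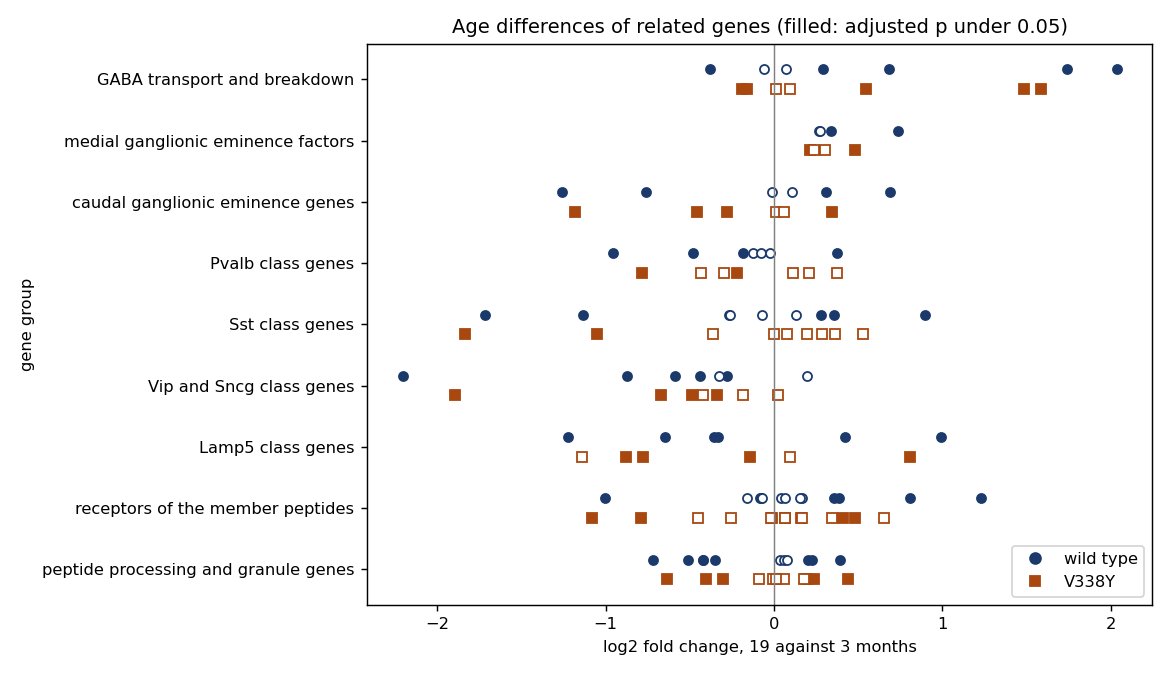
Log2 fold changes of 19 against 3 months (horizontal axis) for the tested genes of 9 related groups (vertical axis) in wild-type (circles) and V338Y mice (squares), 1 point per gene, filled where the adjusted p is under 0.05. None of the 4 factors of the medial ganglionic eminence lies below 0, and Calb2, of the Vip and Sncg group, lies farthest to the left at -2.21 in wild-type mice.

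Within the groups, the members varied with different companions. Deviations of log2 CPM from the group mean were correlated over the 16 mice, mouse 14 among them, with those of 12865 genes. The highest values are given as a description, since the part of depth and of the share of cerebellar RNA in them was not tested. Pvalb went most with Calb1 (r = 0.979), Asph (0.975) and Grin2c (0.974), and without mouse 14 these were 0.891, 0.886 and 0.904. Calb1 and Grin2c are genes of Purkinje and granule cells. Sst went with Map2k1 (0.986), Stk32c (0.965) and Ly6h (0.964), Vip with Rgs4 (0.970), Sprn (0.966) and Arpp19 (0.946), and Cck with Prn (0.958), Dpy19l1 (0.951) and Ldha (0.939). Lamp5 went with Jakmip1 (0.936), Xpot (0.916) and Nsun2 (0.912), and Npy with Gorasp2 (0.918), Pitpna (0.897) and Rasgef1c (0.893). Crh (Acat1, 0.884, Me2, 0.852, and Otud6b, 0.851), Gad1 (Gm23419, 0.856, Mrps2, 0.844, and Adcy8, 0.835) and Gad2 (Ppm1g, 0.800, Atat1, 0.791, and Smarcc1, 0.758) had lower highest values, and the coefficients of variation within groups were 1.69% to 4.53% for Gad1 and 3.74% to 6% for Gad2. Cort was under the level of 50 normalised counts set for this comparison.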

How the data were processed

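The deposited table holds, per mouse, expected counts of gene identifiers; per the methods of the authors they were estimated with RSEM on Ensembl 75, whereas the submitters' processing notes list STAR 2.4.2a, featureCounts and GRCm38. No value carried more than 4 significant digits, so counts of 10000 or more are rounded; all were whole numbers. Symbols, positions and exon lengths came from GENCODE M21 (GRCm38) by Ensembl identifier.

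Genes that reached 10 counts in 2 or more of the 4 mice of a group were tested with edgeR 4.0.16 in R 4.3.3 (TMM, robust quasi-likelihood, 8 mice per comparison, Benjamini-Hochberg over all genes, adjusted p under 0.05; interaction over 16 mice). Standard errors are the log2 fold change over the root of F. In simulated counts with the same spread set for every gene, 98 to 100% of 200 well-covered genes changed by 1 log2 unit were recovered. Of the calls made there, 4.76 to 7.41% were false. Smaller changes, genes of few counts such as Cort and Crh, and groups of uneven spread were not simulated. Log2 CPM used a prior count of 2. p-values measure the spread between the mice of a group.

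The members and gene lists were chosen with earlier results of these data known. All members were named; of each list, up to 3 genes per direction with the largest passing change and a mean of at least 50 normalised counts; and the 3 genes most correlated with each member. Alternatives were RLE and library-size scaling, other count filters, DESeq2 1.42.0, marker covariates, 16 libraries, leaving out each mouse and, added later, V338Y mouse 14 alone. Some genes of the lists are not reported here.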

Additional observations from a re-analysis of the deposited data

Results flagged for a closer look

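In 2 of 40 sets of 4 mice (10 genes in 4 groups) 1 mouse stood apart from the other 3 by Dixon's ratio of the gap to the range on log2 CPM, past its critical value at the 5% level, and chance gives about 1 in 20. The first is Cort in 3-month V338Y mice, where mouse 15 was lowest (46 normalised counts, the others 55 to 56, ratio 0.845). The second is Lamp5 in 19-month wild-type mice, where mouse 13 was lowest (844, the others 910 to 919, ratio 0.888). Without mouse 13, the difference of Lamp5 between the genotypes at 19 months no longer passed (log2 fold change 0.17, adjusted p = 0.159).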

How the results depend on the processing

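No paired analysis was possible because mouse numbers name different animals in each group. Of the log2 fold changes of single members under the alternatives, 800 kept their direction and side of the threshold, 23 lost the call, 17 gained it and 40 changed sign; the cause was not tested. The count of members called went from 7 to 0 with the cerebellum covariate in wild-type mice (94 genes in all), from 5 to 8 with mouse 14 alone in V338Y mice, and at 19 months from 2 to 1 with DESeq2 and 0 with 16 libraries (116 genes against 512). Leaving out 1 mouse gave 6 to 7, 4 to 6 and 1 to 2 members, and 0 in the other comparisons.

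Library size alone gave 4175 genes higher and 6321 lower in wild-type mice (5050 and 5065 with TMM) and 357 and 263 at 19 months (196 and 316). Filters and tools moved the count of all genes at 19 months from 512 to 791 with no count filter and, at 3 months, from 10 to 20 with no filter, 26 with DESeq2 and 23 with 16 libraries. The cerebellum covariate gave 5148 against 8181 genes with age in V338Y mice, 262 at 19 months and 15 at 3 months. For the interaction, 9 genes became 32 with no filter, 37 with DESeq2 and 108 with the cerebellum covariate. Leaving out 1 mouse gave 287 (V338Y mouse 19) to 611 (wild-type mouse 12) genes at 19 months, 6 to 13 at 3 months and 1 to 57 for the interaction.

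With age in wild-type mice, the sign changed for Vip with library size alone (-0.079) and the striatum covariate (-0.013), for Lamp5 with 10 counts in every library (0.0028) and for Cort (0.40) and Pvalb (0.68) with the cerebellum covariate. In V338Y mice it changed for Lamp5 with the cerebellum covariate (-0.13) and mouse 14 alone (-0.013), and for Sst (0.027) and Cck (0.13) with the striatum covariate. At 19 months it changed for Vip (0.087) and Gad1 (-1.0e-05) with the cerebellum covariate, at 3 months for Npy (-0.073) with the striatum covariate, and in the interaction for Npy (0.00717 cerebellum, 0.17 striatum) and Pvalb (-0.012 striatum). Leaving out 1 mouse gave, with age, -0.028 to 0.068 for Vip and -0.049 to 0.017 for Lamp5 in wild-type mice and -0.26 to 0.00993 for Cck in V338Y mice. It gave -0.036 to 0.14 for Npy and -0.020 to 0.057 for Cck at 19 months, and -0.20 to 0.058 for Cck, -0.043 to 0.19 for Cort and -0.20 to 0.011 for Lamp5 at 3 months. In the interaction it gave -0.16 to 0.046 for Npy, -0.046 to 0.22 for Cck, -0.040 to 0.34 for Pvalb and -0.044 to 0.024 for Gad2. Of these members, Cort and Pvalb with age in wild-type mice, and no others, had passed the test as reported.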
